A study of Mus musculus with 6 samples.

Results

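Nnt and 9 genes of the mitochondrial NADPH and antioxidant system were followed in sorted hematopoietic stem cells of mouse bone marrow. The members were taken by symbol: Nnt, Idh2, Me3, Gsr, Txn2, Txnrd2, Prdx3, Prdx5, Sod2 and Gpx1. All 10 were found among 30733 symbols. Nnt was chosen by its lower FPKM in MHCII-hi in these same libraries, so its values are given as a description with no test. The other 9 were set beside it for their place in the same chemistry. The tested group was the fraction with high surface MHC class II, MHCII-hi, with 3 libraries, and its comparison was the MHCII-lo fraction, with 3 libraries (n = 3 per group throughout). Both came from wild-type mice at 5 months, housed free of specific pathogens. No source used here gives the substrain, the sex, the animals behind a library or the bounds of the sort gate. Whether each library is a separate animal is therefore unknown, and p-values cover the library-to-library spread alone, which may be technical.

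Mitochondria leak superoxide from the respiratory chain. Superoxide dismutase turns it into hydrogen peroxide, and peroxiredoxins and glutathione peroxidases reduce the peroxide to water. Their reducing power comes from thioredoxin and glutathione, which thioredoxin reductase and glutathione reductase recharge with NADPH. Inside the organelle NADPH is made by NNT, which is driven by the proton gradient across the inner membrane, and by enzymes such as IDH2 and ME3. Blood stem cells are known to be sensitive to oxidants. The mouse substrain C57BL/6J carries a deletion inside Nnt that removes several coding exons, and the GRCm38 genome is that of the same substrain.

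Values are FPKM, fragments scaled to transcript length and library size, a unit read from the values because the file headers do not name it. How deeply the libraries were sequenced is unknown. Total FPKM came to between 333347 and 333530 in MHCII-hi and between 305934 and 306945 in MHCII-lo. Among stem cell genes, Kit had 10.74, 11.09 and 10.72 FPKM in MHCII-hi, against 10.90, 10.92 and 10.86 FPKM in MHCII-lo, while Slamf1, Procr and Mecom stayed under 1 FPKM in every library. Transcripts of other blood cells were present in both groups. The 11 neutrophil markers summed to between 21428 and 21708 FPKM in MHCII-hi and between 16013 and 16077 FPKM in MHCII-lo. The 6 B cell markers summed to 163 to 167 FPKM in MHCII-hi and 21.5 to 23.9 FPKM in MHCII-lo, and the 5 plasma cell markers to 434 to 441 FPKM in MHCII-hi and 74.6 to 77.8 FPKM in MHCII-lo. The 10 erythroid markers summed to 586 to 610 FPKM in MHCII-hi and 845 to 866 FPKM in MHCII-lo, and the 6 monocyte and macrophage markers to 531 to 536 FPKM in MHCII-hi and 779 to 802 FPKM in MHCII-lo. The 6 T and NK cell markers summed to 138 to 144 FPKM in MHCII-hi and 140 to 148 FPKM in MHCII-lo. By the test described below, which called 40.6% of all tested genes lower and 27.2% higher, all 6 B cell and all 5 plasma cell markers were higher in MHCII-hi. So were 7 of 11 neutrophil markers, with 3 lower. Of the erythroid markers 9 of 10 were lower, of the monocyte and macrophage markers 5 of 6 were lower and 1 higher, and of the T and NK cell markers 3 were higher and 2 lower. None of these markers was at 0 in any library. The part of these cells in the changes below was not tested, and fewer cells of a type cannot be told apart from less RNA per cell in bulk samples.

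Nnt appears in 2 rows of every library. The GENCODE M21 annotation of GRCm38 holds 2 protein-coding gene records of that name on the minus strand of chromosome 13, ENSMUSG00000025453.18 at 119335448 to 119408997 and ENSMUSG00000116207.1 at 119335528 to 119408952. The first has 5 transcripts and the second 1. The single transcript of the second record, Nnt-206, has 17 exons and 3339 bases, and all 3339 lie inside exons of Nnt-202, the transcript of the first record with the most exons. Both share the same 2505 coding bases, and Nnt-202 has 125 further bases that Nnt-206 lacks. The coding sequence of these transcripts is thus the same in both records. The sequence across the end of exon 7 is shown because it makes this plain. It also tells Nnt-201, a shorter transcript of the first record, from Nnt-202 and Nnt-206. Lower case marks the last 30 bases of exon 7 (ending at 119381676) and capitals the first 30 bases of the next exon, 5′ to 3′ on the transcript. That next exon starts at 119374774 in Nnt-202 and Nnt-206 and at 119370145 in Nnt-201.
Nnt-202: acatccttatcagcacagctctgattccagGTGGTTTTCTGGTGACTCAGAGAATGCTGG
Nnt-206: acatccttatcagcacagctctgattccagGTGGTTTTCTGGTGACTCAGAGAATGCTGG
Nnt-201: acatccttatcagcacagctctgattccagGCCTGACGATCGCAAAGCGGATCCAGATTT
The first 2 sequences are identical, and Nnt-201 joins exon 7 to a more distant exon. The annotation the authors used and the record behind each row are not stated. The deposited values are per gene, so they do not show which exons carried the reads. GRCm38 is the genome of the substrain with the deletion in Nnt, so the deleted exons are absent from these records. The 2505 coding bases are therefore not the full coding sequence of an intact Nnt. The deleted exons could not be analysed here, and whether the join after exon 7 spans the deletion was not tested.

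The row with the higher mean was low in MHCII-hi, at 4.66, 2.19 and 2.91 FPKM, against 15.38, 15.78 and 15.05 FPKM in MHCII-lo. The row with the lower mean went the other way, with 4.79, 6.0 and 5.52 FPKM in MHCII-hi against 1.03, 0.90 and 1.29 FPKM in MHCII-lo. In neither row did the groups overlap. Their sum was 9.45, 8.19 and 8.43 FPKM in MHCII-hi, against 16.41, 16.68 and 16.34 FPKM in MHCII-lo. Summed Nnt was thus lower in each MHCII-hi library than in any MHCII-lo library, with means of 8.69 ± 0.669 and 16.5 ± 0.180 FPKM (SD). MHCII-lo was 1.90-fold higher by the sum and 4.73-fold higher by the row with the higher mean alone. On the log2(FPKM + 1) scale the sum differed by -0.85 ± 0.05 (SE), the row with the higher mean by -1.99 ± 0.19 and the other row by 1.63 ± 0.10.

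**Figure D1:**
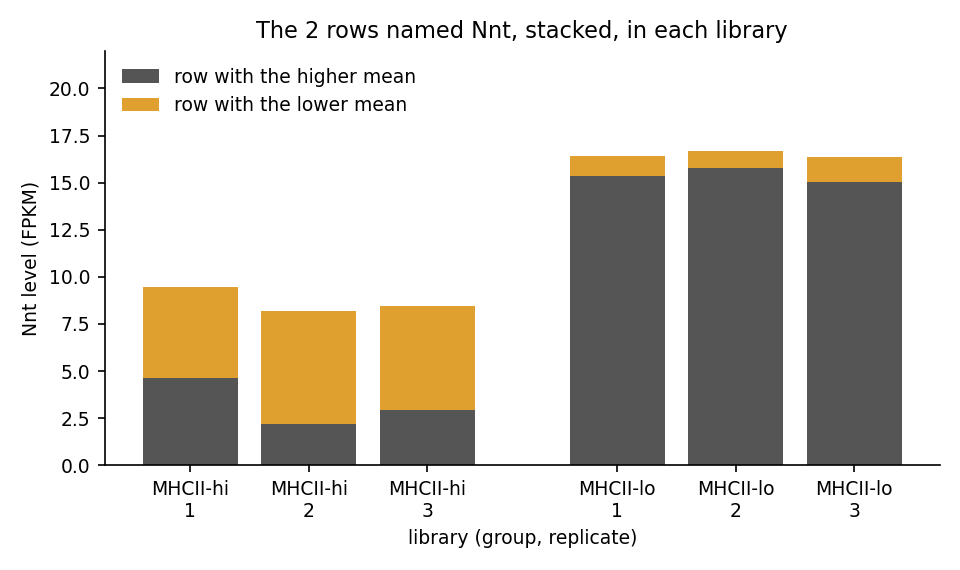
FPKM of the 2 rows named Nnt, stacked, in each of the 6 libraries, with MHCII-hi on the left; grey is the row with the higher mean and orange the other. The orange row makes up 50.7% to 73.3% of the bar in MHCII-hi and 5.40% to 7.89% in MHCII-lo, and the whole bar is lower in MHCII-hi.

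How the sum divided between the rows varied among libraries. The row with the lower mean held 50.7%, 73.3% and 65.5% of summed Nnt in MHCII-hi, against 6.28%, 5.40% and 7.89% in MHCII-lo. Within MHCII-hi the coefficient of variation (CV, the SD over the mean) was 39.0% for the row with the higher mean, 11.2% for the other and 7.70% for the sum. Tested genes at 1 to 10 FPKM in MHCII-hi had a median CV of 7.38%, and 95% of them lay under 31.9%, so the sum varied like other genes of its level and the first row did not. Of 12 symbols with 2 rows at a mean of at least 1 FPKM, Nnt was the 1 whose rows moved in opposite directions with no overlap between groups. Rows that share a symbol were therefore summed for every gene, and Nnt means this sum from here on.

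The 12285 genes that averaged 1 FPKM or more were compared in limma on log2(FPKM + 1), with p-values adjusted by Benjamini-Hochberg over all of them and a threshold of 0.05. Of these, 67.8% passed, 40.6% lower and 27.2% higher in MHCII-hi, and the median log2 change was -0.08. Under median-of-ratios scaling the shares were 32.6% lower and 33.3% higher. Among the 9 members other than Nnt, 8 passed the expression minimum, and all 8 fell while none rose. Their median log2 change was -0.39. Since the members were chosen with results of this comparison known, the count is read beside the 40.6% and not as independent support. These 8 members also had all MHCII-hi libraries below all MHCII-lo libraries, an arrangement that 43.3% of tested genes had, with 29.6% the other way round.

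NADPH supply came first in the order of roles. Idh2, the matrix isocitrate dehydrogenase that makes NADPH (chromosome 7, 80094846 to 80115392, minus strand), had 30.16, 30.43 and 29.81 FPKM in MHCII-hi, against 49.51, 49.99 and 48.95 FPKM in MHCII-lo. The MHCII-hi libraries lay close together and well below the others. Idh2 fell by 0.70 ± 0.02 (SE) on the log2 scale, with means of 30.1 ± 0.311 FPKM in MHCII-hi and 49.5 ± 0.521 FPKM in MHCII-lo (SD; limma adjusted p = 5.32e-07). Me3, the mitochondrial malic enzyme (chromosome 7, 89632392 to 89854359, plus strand), was listed at 0, 0 and 0.01 FPKM in MHCII-hi and at 0 in all 3 MHCII-lo libraries. It was not tested. Of the NADPH makers in the matrix, Idh2 and Nnt were thus the measured members. The ratio of Nnt to Idh2 within a library was 0.313, 0.269 and 0.283 in MHCII-hi, against 0.331, 0.334 and 0.334 in MHCII-lo. These ratios did not overlap, and they lay closer than the levels of either gene.

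Both reductases fell, by unequal amounts. Txnrd2, the mitochondrial thioredoxin reductase, a selenoprotein (chromosome 16, 18426384 to 18479073, plus strand), had 2.79, 2.49 and 2.97 FPKM in MHCII-hi, against 4.61, 5.14 and 4.83 FPKM in MHCII-lo. Its log2 change was -0.65 ± 0.06 (SE; limma adjusted p = 0.000132), and no MHCII-hi library reached an MHCII-lo library. Gsr, the glutathione reductase of cytosol and mitochondria (chromosome 8, 33652523 to 33698163, plus strand), had 119.30, 124.02 and 122.90 FPKM in MHCII-hi, against 149.38, 148.10 and 148.36 FPKM in MHCII-lo. The groups were again apart, but its level in MHCII-hi was 17.9% lower, against 43.4% lower for Txnrd2. Gsr fell by 0.28 ± 0.02 (SE) on the log2 scale (limma adjusted p = 1.99e-05).

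Txn2, the mitochondrial thioredoxin that TXNRD2 recharges (chromosome 15, 77915047 to 77929006, minus strand), had 14.79, 14.45 and 14.47 FPKM in MHCII-hi, against 17.24, 18.32 and 17.94 FPKM in MHCII-lo. All MHCII-hi libraries lay below all MHCII-lo libraries. On the log2(FPKM + 1) scale Txn2 had the smallest change of the 8 tested members, -0.27 ± 0.03 (SE; limma adjusted p = 0.000273). Gsr lay within that SE at -0.28, and by mean FPKM it fell slightly less, 17.9% against 18.3% for Txn2. The ratio of Txnrd2 to Txn2 was 0.189 ± 0.0165 in MHCII-hi and 0.272 ± 0.00713 in MHCII-lo (SD), without overlap.

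The 3 peroxidases all fell, by unequal amounts. Prdx3, the peroxiredoxin found in the matrix alone (chromosome 19, 60864051 to 60874556, minus strand), had 28.89, 31.87 and 30.46 FPKM in MHCII-hi, against 61.41, 56.36 and 55.79 FPKM in MHCII-lo. The lowest MHCII-lo library was far above the highest MHCII-hi library. With a log2 change of -0.91 ± 0.05 (SE; limma adjusted p = 6.82e-06) it fell more than the other 7 tested members, and 2.30% of all tested genes had a lower change. Prdx5, a peroxiredoxin of mitochondria, peroxisomes and cytosol (chromosome 19, 6906697 to 6910106, minus strand), had 87.19, 84.86 and 82.05 FPKM in MHCII-hi, against 108.07, 105.37 and 105.31 FPKM in MHCII-lo. It fell by 0.32 ± 0.03 (SE; limma adjusted p = 4.71e-05), and 25.4% of tested genes had a lower change. Prdx5 overlaps the start of Trmt112 on the other strand, and whether reads were counted by strand is not stated, so reads of the overlap cannot be told apart. Trmt112 also fell, with 21.4 ± 2.54 FPKM in MHCII-hi and 28.0 ± 0.497 FPKM in MHCII-lo (SD; limma adjusted p = 0.00366). Gpx1, the selenium-dependent glutathione peroxidase of cytosol and mitochondria (chromosome 9, 108338903 to 108340343, plus strand), had 351.25, 353.15 and 341.23 FPKM in MHCII-hi, against 459.57, 451.29 and 462.15 FPKM in MHCII-lo. These groups were apart as well, and Gpx1 fell by 0.39 ± 0.02 (SE; limma adjusted p = 3.00e-06).

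Within a library the ratio of Prdx3 to Prdx5 was 0.331, 0.376 and 0.371 in MHCII-hi, against 0.568, 0.535 and 0.530 in MHCII-lo. This ratio does not depend on the scaling of a library, and its groups were apart. Of the 5 ratios tested, from which that of Nnt to Idh2 was left out, 4 did not overlap between groups and the ratio of Sod2 to Gpx1 did, at 0.0125 ± 0.000725 in MHCII-hi and 0.0131 ± 0.000716 in MHCII-lo (SD). The ratio of Prdx3 to Txn2 was 2.09 ± 0.127 in MHCII-hi and 3.25 ± 0.271 in MHCII-lo (SD), and that of Gsr to Gpx1 was the 1 higher in MHCII-hi, at 0.350 ± 0.0103 against 0.325 ± 0.00358 in MHCII-lo (SD). For the 4 the two-sided exact permutation test gave p = 0.1, the smallest that 3 libraries against 3 allow (0.125 after Benjamini-Hochberg adjustment over the 5). For Sod2 to Gpx1 the exact p was 0.4.

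Sod2, the manganese superoxide dismutase of the matrix (chromosome 17, 13006846 to 13040063, plus strand), had 4.17, 4.33 and 4.53 FPKM in MHCII-hi, against 5.90, 6.29 and 5.82 FPKM in MHCII-lo. It was lower in all MHCII-hi libraries and fell by 0.39 ± 0.05 (SE; limma adjusted p = 0.000328). Its level was among the lowest of the members in both groups.

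**Figure D2:**
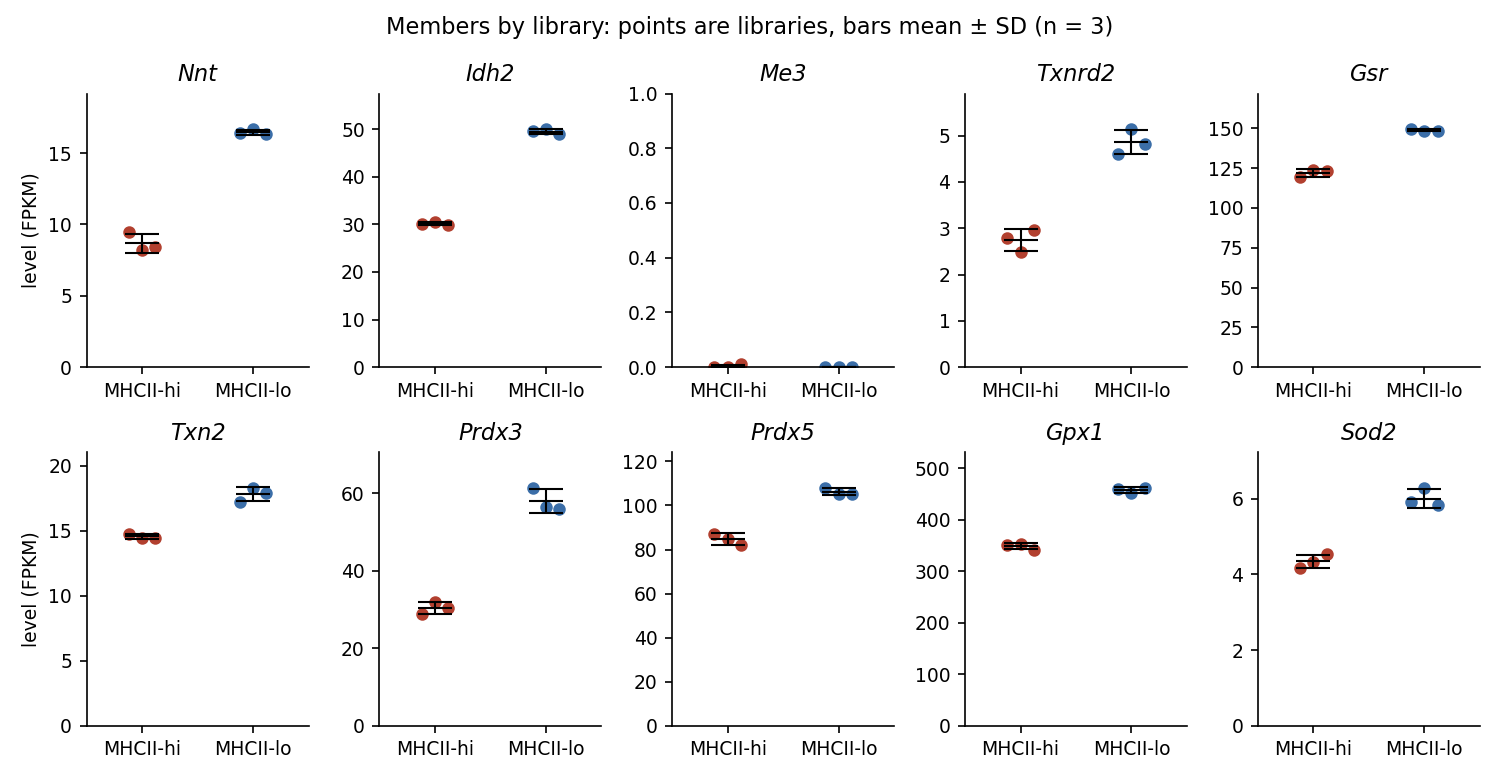
FPKM of each member in the 3 MHCII-hi libraries (red) and the 3 MHCII-lo libraries (blue), each panel from 0, with mean and SD; Nnt is the sum of its 2 rows. In 9 panels all red points lie below all blue points, and Me3 is at or next to 0 in both groups.

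The order of levels was the same in both groups apart from a single pair that overlapped. Gpx1 was highest, at 349 FPKM in MHCII-hi and 458 FPKM in MHCII-lo, followed by Gsr, Prdx5, Prdx3, Idh2, Txn2, Nnt, Sod2, Txnrd2 and Me3. FPKM is scaled to transcript length, so levels of different genes can be set side by side. Prdx3 and Idh2 did not differ beyond their spread in MHCII-hi, at 30.4 ± 1.49 and 30.1 ± 0.311 FPKM (SD). In MHCII-lo they were apart, at 57.9 ± 3.09 and 49.5 ± 0.521 FPKM (SD). All other neighbours in the order were separated in both groups. Summed over the 10 members, the level was 637 to 654 FPKM in MHCII-hi and 858 to 872 FPKM in MHCII-lo, or 0.191% to 0.196% and 0.280% to 0.284% of the library's FPKM.

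**Figure D3:**
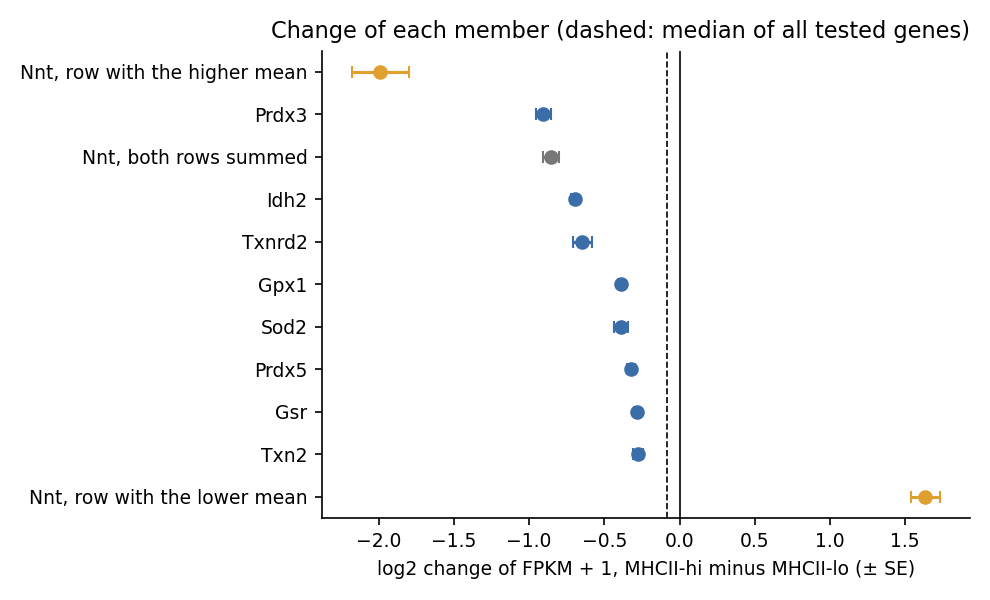
Difference in log2(FPKM + 1), MHCII-hi minus MHCII-lo, with its SE, for each tested member; blue members were tested, grey is Nnt with both rows summed and orange its single rows. The summed value of -0.85 lies beside Prdx3 at -0.91, and the 2 single rows lie at -1.99 and 1.63; the dashed line is the median of all tested genes, -0.08.

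The member changes kept their sign under every setting tried, apart from the Nnt row with the lower mean when rows were left unsummed (1.63). The plot by setting leaves that row out.

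**Figure D4:**
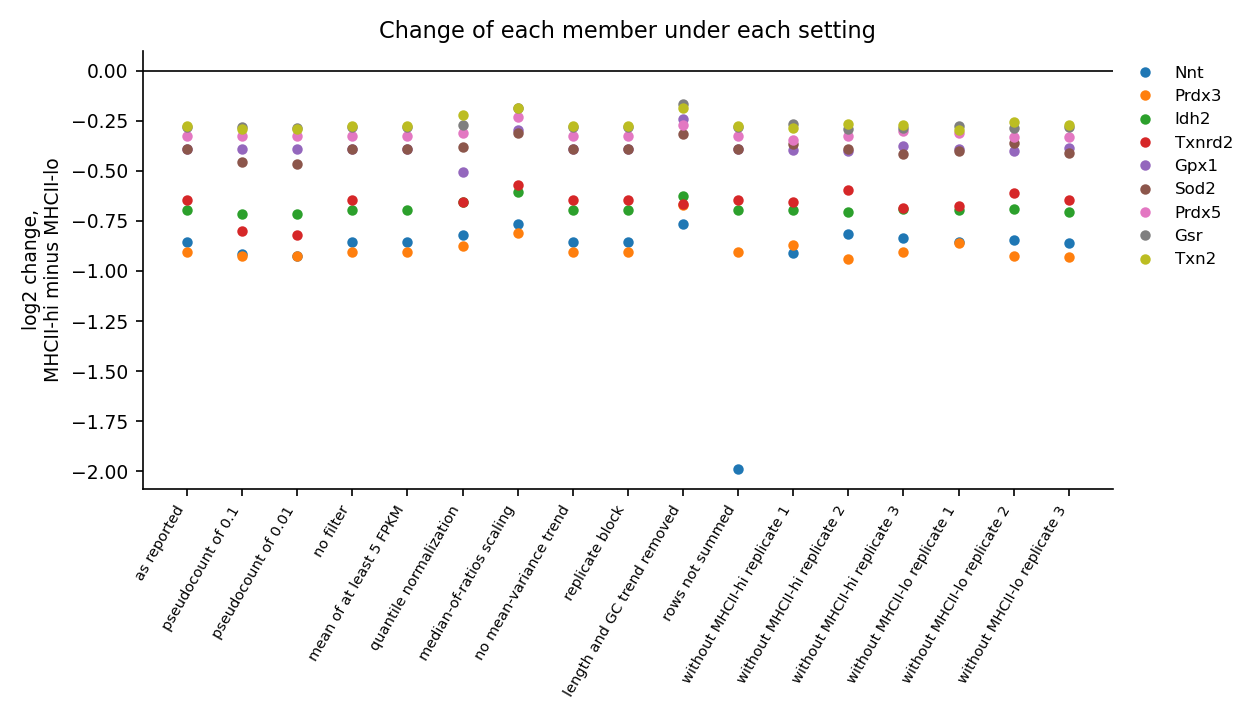
Log2 change, MHCII-hi minus MHCII-lo, of each tested member (colours) under the reported fit and 16 alternatives (x axis). All points lie below 0. The 1 point far from its neighbours, at -1.99, is the Nnt row with the higher mean, from the fit with rows left unsummed. The other Nnt row, at 1.63 in that fit, is not plotted.

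Promoters were examined because 8 members fell together. RefSeq promoter sequences of GRCm38.p6 were matched for 8 of the 10 members, all but Nnt and Gsr, and the 250 bases before the start site were searched on both strands. The motifs were the antioxidant response element bound by NRF2 (TGACNNNGC), the ETS site bound by GABPA (CCGGAAG), the FOXO site (TGTTTAC) and the palindromic NRF1 site. None of these motifs overlaps another in the matches found. Of all 32851 promoters, 10.2% held the antioxidant response element, 6.91% the ETS site, 3.17% the FOXO site and 0.782% the NRF1 site. Among the members 2 matches were found, both of the ETS site. They are shown in capitals, Prdx5 at chr19:6910107-6910356 and Txn2 at chr15:77928995-77929244, both minus strand and 5′ to 3′ toward the gene.
Prdx5: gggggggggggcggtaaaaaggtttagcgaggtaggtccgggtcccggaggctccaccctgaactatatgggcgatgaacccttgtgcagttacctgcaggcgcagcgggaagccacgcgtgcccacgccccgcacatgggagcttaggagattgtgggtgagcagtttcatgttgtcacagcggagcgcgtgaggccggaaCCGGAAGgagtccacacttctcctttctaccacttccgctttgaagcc
Txn2: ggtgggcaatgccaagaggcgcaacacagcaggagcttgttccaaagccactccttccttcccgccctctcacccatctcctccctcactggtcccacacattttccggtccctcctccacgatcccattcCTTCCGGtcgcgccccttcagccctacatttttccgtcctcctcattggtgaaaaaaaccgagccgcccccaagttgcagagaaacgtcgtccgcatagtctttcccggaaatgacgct
The match begins 48 bases before the start in Prdx5 and 119 bases before it in Txn2, where it lies on the opposite strand. A match of letters is a description and not a bound site.

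Of 25 protein-coding genes within 1 Mb of Nnt on chromosome 13, 20 had a row and 10 were tested, of which 6 fell, 2 rose and 2 did not pass. Over all tested genes 40.6% were lower and 27.2% higher, and nothing particular to the region is read from so few genes. Paip1, a partner of the poly(A)-binding protein and the nearest tested neighbour at higher coordinates (119428601 to 119458218, plus strand), had 11.41, 11.46 and 10.71 FPKM in MHCII-hi, against 13.26, 13.88 and 13.43 FPKM in MHCII-lo. It fell by 0.25 ± 0.04 (SE; limma adjusted p = 0.000916), and the call was lost after each library's dependence on transcript length and base composition (GC) was regressed out (-0.053, limma adjusted p = 0.254). 4833420G17Rik stood at 14.0 ± 0.0624 FPKM in MHCII-hi and 13.55 ± 0.314 FPKM in MHCII-lo (SD) and did not pass (limma adjusted p = 0.186). It passed as higher under quantile normalization, median-of-ratios scaling and the length and GC removal (0.093, 0.14 and 0.21 on the log2 scale). Hmgcs1, a cholesterol synthesis enzyme, stood at 7.60 ± 0.549 FPKM in MHCII-hi and 8.26 ± 0.3005 FPKM in MHCII-lo (SD; limma adjusted p = 0.123), and passed as lower without MHCII-hi replicate 1 (-0.16, limma adjusted p = 0.0285). Mrps30, of the mitochondrial ribosome, fell by 0.32 ± 0.04 (SE; limma adjusted p = 0.000669). Zfp131 was called lower at -0.091 ± 0.03 (SE; limma adjusted p = 0.0347), a call lost under quantile normalization, median-of-ratios scaling, the replicate block (limma adjusted p = 0.0836) and when any library other than MHCII-hi replicate 2 was left out (limma adjusted p of 0.0517 to 0.105), and turned to higher with the length and GC trend removed (0.091). The remaining tested neighbours, D13Ertd608e and Gm21762, which rose by 1.14 and 1.51, and Gm36079, Gm21188 and BC147527, which fell by 0.72, 0.31 and 0.58, lie in a region of repeated gene models, so their single levels are uncertain.

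Genes with a pattern like that of Nnt were sought by Pearson's r of log2(FPKM + 1) over the 6 libraries. The search was limited to the 181 genes with a log2 change of -1 or less. Nnt itself, at -0.85, lies outside this limit, so genes with a change of its size were left out. The 5 with the highest r were Pfdn6, Rps28, Rpl34, AC124742 and Hbb-bt, with r of 0.999, 0.998, 0.997, 0.997 and 0.997. With 2 groups far apart such an r mostly records the group difference, and the values are a description. Pfdn6, a subunit of the prefoldin chaperone, had 15.70, 12.66 and 12.88 FPKM in MHCII-hi, against 29.96, 29.86 and 29.52 FPKM in MHCII-lo. As with Nnt, MHCII-hi replicate 1 was the highest of its group. Rps28 and Rpl34 encode ribosomal proteins and Hbb-bt a beta globin chain that is also among the erythroid markers. Hbb-bt had 73.11, 64.19 and 70.99 FPKM in MHCII-hi, against 148.18, 147.45 and 145.14 FPKM in MHCII-lo.

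The wider system was described by 10 lists of genes that hold no member, 112 genes in all, with 4 genes on more than 1 list. Of these 100 were tested, and 67 fell, 15 rose and 18 did not pass, with a median log2 change of -0.31 against -0.08 over all tested genes. Over all tested genes 40.6% fell and 27.2% rose. Under median-of-ratios scaling 55 of the 100 fell and 18 rose, against 32.6% and 33.3% of all tested genes. Of 5 tested genes of mitochondrial NADPH supply 4 fell and none rose, with a median of -0.50. Nadk2, the kinase that makes NADP in mitochondria, had 9.58 ± 0.677 FPKM in MHCII-hi and 15.98 ± 0.763 FPKM in MHCII-lo (SD), and fell by 0.68 (limma adjusted p = 5.50e-05). Glud1, glutamate dehydrogenase, fell by 0.55, and the folate enzymes Mthfd1l and Mthfd2 by 0.50 and 0.35. Shmt2, at 29.5 ± 0.863 FPKM in MHCII-hi and 31.4 ± 1.44 FPKM in MHCII-lo (SD), did not pass (limma adjusted p = 0.0872), and passed as lower with the length and GC trend removed.

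The list of cytosolic NADPH supply, which also holds H6pd of the endoplasmic reticulum, moved both ways. H6pd did not pass (limma adjusted p = 0.205), and passed as lower with the length and GC trend removed (-0.26). Of 7 tested genes 3 fell and 3 rose, beside 40.6% lower and 27.2% higher over all tested genes. Idh1, the cytosolic counterpart of Idh2, had 25.9 ± 2.45 FPKM in MHCII-hi and 54.4 ± 0.869 FPKM in MHCII-lo (SD), a log2 change of -1.05 (limma adjusted p = 1.23e-05). Mthfd1 fell by 0.54 and Pgd, of the pentose phosphate pathway, by 0.12, with the call for Pgd lost under median-of-ratios scaling and with the length and GC trend removed. G6pdx, the entry enzyme of that pathway, rose by 0.13, its next enzyme Pgls by 0.28 and the NAD kinase Nadk by 0.12. G6pdx averaged 109 ± 1.23 FPKM in MHCII-hi and 99.95 ± 2.66 FPKM in MHCII-lo (SD; limma adjusted p = 0.00263).

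In a list of other thioredoxin, peroxiredoxin and methionine sulfoxide reductase genes, mainly of the cytosol, 8 of 13 tested genes fell and 2 rose. The shares over all tested genes were 40.6% lower and 27.2% higher. The list also holds Msrb2, a mitochondrial enzyme that did not pass, and Msra, which is found in mitochondria too. Prdx4, of the endoplasmic reticulum, Prdx2 and Prdx1 fell by 0.98, 0.92 and 0.89, close to Prdx3 at 0.91. Prdx6 fell by 0.22, near Prdx5 at 0.32, and its call was lost with the length and GC trend removed. Txn1, the cytosolic thioredoxin, had 91.9 ± 3.37 FPKM in MHCII-hi and 170 ± 1.68 FPKM in MHCII-lo (SD), a change of -0.88 (limma adjusted p = 6.39e-07), against -0.27 for its mitochondrial relative Txn2. The thioredoxin inhibitor Txnip rose by 0.31 and the methionine sulfoxide reductase Msra by 0.43.

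Glutathione genes fell in 14 of 19 tested cases and rose in 2, with a median log2 change of -0.38. Among all tested genes 40.6% fell and 27.2% rose. Under median-of-ratios scaling 11 fell and 3 rose, against 32.6% and 33.3% of all tested genes. Glrx5, a mitochondrial glutaredoxin of iron-sulfur cluster assembly, had 5.28 ± 0.467 FPKM in MHCII-hi and 11.2 ± 0.331 FPKM in MHCII-lo (SD), and fell by 0.96 (limma adjusted p = 1.34e-05). Mgst3, a microsomal glutathione transferase, fell by 0.77, and Gpx4, which reduces lipid peroxides, by 0.74. Glrx and Ggt5 were the 2 that rose. Mgst1 was called lower and turned to higher (0.10) with the length and GC trend removed. Superoxide dismutase and catalase split. Sod1, the cytosolic dismutase, fell by 0.54 and its copper chaperone Ccs by 0.58, while Cat, the catalase of peroxisomes, rose by 0.52. Cat had 43.9 ± 1.66 FPKM in MHCII-hi and 30.4 ± 1.23 FPKM in MHCII-lo (SD; limma adjusted p = 3.66e-05).

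**Figure D5:**
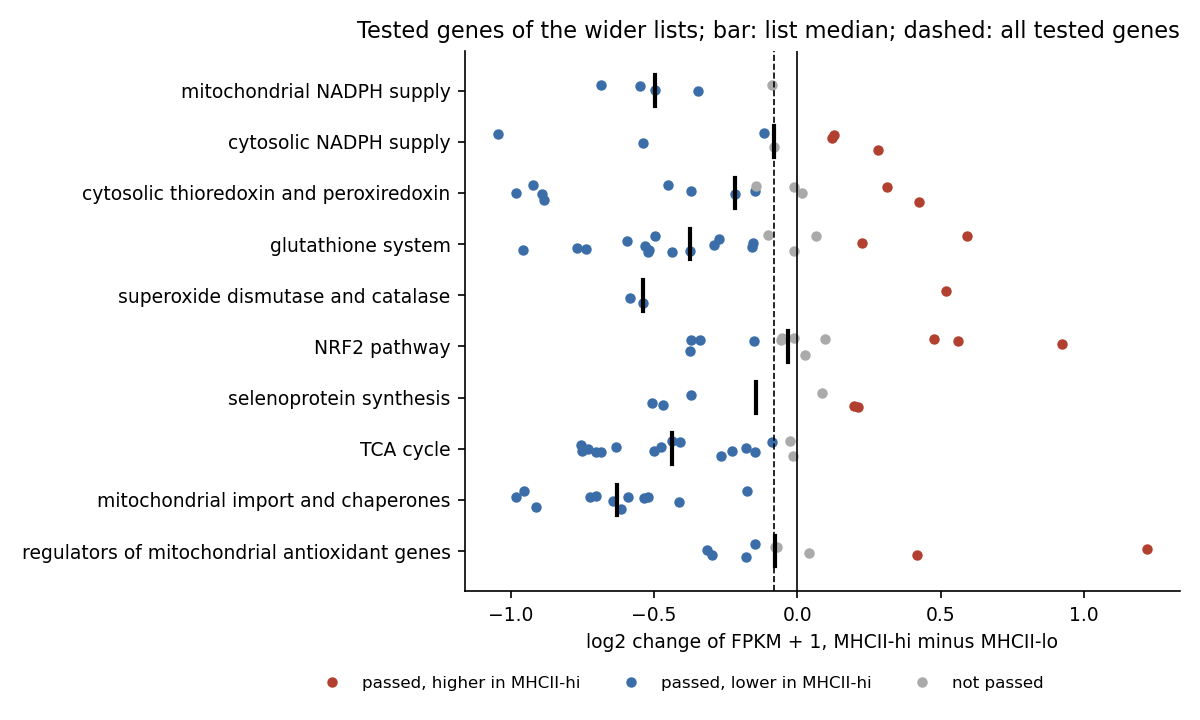
Difference in log2(FPKM + 1), MHCII-hi minus MHCII-lo, of each tested gene of the 10 wider lists, members left out; colour gives the limma call, the bar the list's median and the dashed line the median of all tested genes. The lists of mitochondrial import and chaperones, of mitochondrial NADPH supply and of the TCA cycle lie left of 0 throughout, and the NRF2 list spreads to both sides.

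Of 12 tested genes of the NRF2 pathway, the main inducer of antioxidant genes, 3 rose, 4 fell and 5 did not pass, beside 27.2% higher and 40.6% lower over all tested genes. Under median-of-ratios scaling 5 rose and 3 fell, beside 33.3% higher and 32.6% lower over all tested genes. Hmox1, heme oxygenase, had 27.7 ± 0.492 FPKM in MHCII-hi and 14.2 ± 1.34 FPKM in MHCII-lo (SD), a rise of 0.92 (limma adjusted p = 1.93e-05). The small MAF factors Maff and Mafk rose by 0.56 and 0.48. Gclm and Txnrd1, both targets of NRF2, fell by 0.38 and 0.37, and Keap1, its inhibitor, fell by 0.34. Nfe2l2, which encodes NRF2, stood at 26.1 ± 1.27 FPKM in MHCII-hi and 24.3 ± 0.359 FPKM in MHCII-lo (SD). It did not pass (limma adjusted p = 0.0587) and passed as higher under quantile normalization, median-of-ratios scaling and the length and GC removal.

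Of 9 tested regulators of mitochondrial antioxidant genes 2 rose and 4 fell, and under median-of-ratios scaling 2 rose and 2 fell. Over all tested genes 27.2% rose and 40.6% fell, or 33.3% and 32.6% under that scaling. Nothing particular to this list is read from so few genes. Foxo1 had 7.05 ± 0.161 FPKM in MHCII-hi and 2.45 ± 0.133 FPKM in MHCII-lo (SD), a rise of 1.22 (limma adjusted p = 1.40e-06), and Foxo3 rose by 0.42. These forkhead factors are known to activate Sod2. Sirt3, the mitochondrial deacetylase that acts on IDH2 and SOD2, fell by 0.31 (limma adjusted p = 0.00149). Of 6 genes of selenoprotein synthesis, on which GPX1 and TXNRD2 depend, Sephs2, Trnau1ap and Sepsecs fell by 0.51, 0.47 and 0.37, Secisbp2 and Eefsec rose by 0.20 and 0.21, and Pstk did not pass.

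Mitochondrial genes with no part in redox defence also fell. All 12 tested genes of import and chaperones fell, with a median log2 change of -0.63, while 40.6% of all tested genes fell and 27.2% rose. Hspe1 and Hspd1, the matrix chaperonin, fell by 0.98 and 0.95, and the outer membrane channel Vdac3 by 0.91. Under median-of-ratios scaling 11 of the 12 were called, Timm44 being lost, while 32.6% of all tested genes fell and 33.3% rose. In the TCA cycle 15 of 17 tested genes fell and none rose, with a median of -0.44, and under median-of-ratios scaling 12 fell and none rose. Idh3a, of the NAD-linked isocitrate dehydrogenase, had 11.6 ± 0.632 FPKM in MHCII-hi and 20.2 ± 0.184 FPKM in MHCII-lo (SD), a change of -0.75 (limma adjusted p = 7.03e-06) beside -0.70 for Idh2. Fh1 and Dld fell by 0.75 and 0.73. Mdh2 was called lower at -0.09 and turned to higher (0.10) with the length and GC trend removed. Under that setting 12 TCA genes fell and 2 rose, beside 3986 lower and 3730 higher among all 12047 genes tested there.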

How the data were processed

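A stranded mRNA kit was used on RNA of the sorted fractions, per the labels' protocols. Tools listed are fastp, HISAT2 and StringTie, with GRCm38 and mm10 as builds, per the submitters' processing notes, which carry no versions here. The deposited values, with 2 decimals in 30803 rows per library, were taken as FPKM from the authors' pipeline, since they have decimals and unequal totals. No counting interval was computed because read depth is unknown. Symbols with more than 1 row numbered 67, and their 137 rows were summed by symbol, leaving 30733. This was decided after the 2 Nnt rows were seen.

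Genes averaging 1 FPKM or more were transformed to log2(FPKM + 1), which understates changes of low genes, and tested in limma 3.58.1 under R 4.3.3 (two-sided, group as the single term, moderated variances with a trend on the mean, Benjamini-Hochberg over all genes). The fit was tested on simulated data. Ratios within libraries were compared by exact permutation in scipy 1.17.1. Other tools were Python 3.11.15, pandas 2.3.3, numpy 2.4.6 and matplotlib 3.10.9.

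The members and all lists were chosen with earlier results of these data known. Named genes were all members and up to 3 tested genes per wider list, ranked by absolute change among those that passed (the 2 smallest p where none did). Also named were tested coding neighbours within 1 Mb and the 5 genes with the highest r to Nnt among those with a log2 change of -1 or less. Other list genes and Trmt112 complete small counts or were named after their values were seen. Alternatives were pseudocounts of 0.1 and 0.01, a minimum of 5 FPKM or none, median-of-ratios scaling, quantile normalization, variances without the trend, the replicate number as a block, regression of each library on transcript length and GC, each library left out, and, added after the data were seen, rows left unsummed. Coordinates are GENCODE M21 on GRCm38. One item is not reported here.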

Additional observations from a re-analysis of the deposited data

How the results depend on the processing

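All 8 tested members other than Nnt stayed lower and past the threshold under the 16 alternatives, except that Txnrd2 fell under the minimum of 5 FPKM and 7 were then called. Their largest adjusted p in limma was 0.00258, for Txn2 with the replicate block. The change of Prdx3 lay between -0.94 and -0.67 and that of Gsr between -0.29 and -0.17, the weaker ends with the length and GC trend removed. The change of Gpx1 was -0.51 under quantile normalization and -0.24 with the length and GC trend removed. The change of Nnt depended on the treatment of its rows. Left unsummed, the row with the higher mean changed by -1.99 and the other by 1.63. The sum lay at -0.92 with a pseudocount of 0.01 and at -0.77 with the length and GC trend removed or under median-of-ratios scaling. Counts over all genes were 3347 higher and 4987 lower, and 2210 higher at a minimum of 5 FPKM, where fewer genes were tested. Median-of-ratios scaling gave 4092 higher and 4008 lower, and 49.5% of calls were then lower, against 59.8%. Leaving out 1 library gave 3072 to 3168 higher and 4504 to 4812 lower. Zfp131 turned to 0.091 with the length and GC trend removed, and the cause was not tested. Deviations from the group mean correlated at 0.0693, 0.00789 and 0.0832 between same-numbered libraries, and at -0.0893 to 0.0131 between the other pairs. Whether a shared number marks a shared animal or batch is not stated. The fit with the replicate block gave 3227 higher and 4816 lower with 8 members lower. Depth is unknown, so levels near 0, such as Me3, give no upper limit.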
